A study of Mus musculus with 7 samples.

Results

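Chromatin accessibility was compared directly between the nuclei of SST and VIP interneurons of the mouse cortex, using the read counts of the 2 SST and the 2 VIP ATAC-Seq libraries over 1 shared set of reference regions. All regions that passed edgeR's filter on low counts were taken as members, which left 36109 of 323369 regions, and each was tested in both directions. The SST libraries came from adult mice with Sst-IRES-Cre and the VIP libraries from mice with Vip-IRES-Cre. Mice of both groups also carried the Cre-dependent SUN1-2xsfGFP-6xMYC allele, which puts green fluorescent protein on the nuclear envelope, were between 6 and 12 weeks old and had received no virus. Tagged nuclei were pulled out of the cortex with antibodies to GFP, and each library was made from a single animal. Cre in these lines marks every cell that has ever used the driver gene, so a few nuclei of other classes can be carried along, and the nuclei were not counted before the assay. The labels give male mice while the methods name both sexes; without the sex chromosomes 6332 and 6852 regions were called, against the 6359 and 6903 below. The series also holds 2 ATAC-Seq libraries of PV interneurons, from uninjected Pv-Cre mice with the same tag and of the same ages. These did not enter the main test, only 1 alternative fit of all 6 ATAC-Seq libraries, and are used below as another point of reference. The single-nucleus RNA-Seq of the series is of visual cortex from C57BL/6J mice, 6 to 10 weeks old, injected with reporter viruses (SST PESCA AAV9).

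SST and VIP interneurons are inhibitory neurons of different embryonic origin. SST cells arise in the medial ganglionic eminence (MGE) under transcription factors such as NKX2-1, LHX6, SOX6 and SATB1, and many of them, the Martinotti cells, inhibit the distal dendrites of pyramidal neurons. VIP cells arise in the caudal ganglionic eminence (CGE), rely on factors such as PROX1, SP8 and the COUP-TF proteins NR2F1 and NR2F2, and mostly inhibit other interneurons, SST cells among them. ATAC-Seq counts the insertions of a transposase, which enters open chromatin at active promoters and at the distal elements, enhancers included, that set which genes a cell type uses.

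The SST libraries held 1905068 and 2256073 reads in the reference regions and the VIP libraries 2014353 and 2237095. Of these reads, 71.1% and 69.8% lay in the tested regions in SST, and 74.3% and 78.8% in VIP. A read was found in 224966 and 248575 reference regions in SST and in 223016 and 202437 in VIP. This spread of reads differed with the class compared, and its part in the calls was not tested. The median tested region had 75 reads over the 4 libraries and the lowest had 20. Replicates correlated across the tested regions with Pearson's r = 0.907 (SST) and 0.945 (VIP), and libraries of different classes with 0.560 to 0.605. The labels were checked on the driver genes. The promoter region of Sst (somatostatin), chr16:23890318-23891106 in GRCm38, held 33 and 32 reads in the SST libraries and 4 and 4 in the VIP libraries. The promoter region of Vip (vasoactive intestinal peptide), chr10:5638905-5639646, held 5 and 3 reads in the SST libraries and 26 and 37 in the VIP libraries. Each promoter was more open in the class that its gene names, with groups that did not overlap, by 8.84-fold (log2 fold change 3.14 ± 0.51 SE, adjusted p = 0.000674) and 6.84-fold (−2.77 ± 0.54 SE, adjusted p = 0.00159). Throughout, positive log2 values mean more reads in SST, p-values are from edgeR's quasi-likelihood test with Benjamini-Hochberg adjustment over all 36109 regions, and n = 2 libraries per group. A lower count in bulk nuclei can come from fewer open nuclei or from less opening per nucleus, and these cannot be told apart.

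The sequences of 8 distal regions that recur below are given here, because they lie near genes that tell the 2 classes apart and because the motifs compared later can be read in them. Each is the central 300 bases of the called intergenic or intronic region with the smallest p, for its gene and direction, whose window held no annotated exon, on the plus strand of GRCm38, 5′ to 3′. Capitals mark matches, on either strand, to the AP-1 motif TGANTCA, the SOX motif ACAATGG, the NFI motif TTGGCA and the ATOH/NEUROD E-box CAGATGG. The first 4 were more open in SST and the last 4 in VIP.
Sst, 1935 bp upstream, chr16:23892744-23893043: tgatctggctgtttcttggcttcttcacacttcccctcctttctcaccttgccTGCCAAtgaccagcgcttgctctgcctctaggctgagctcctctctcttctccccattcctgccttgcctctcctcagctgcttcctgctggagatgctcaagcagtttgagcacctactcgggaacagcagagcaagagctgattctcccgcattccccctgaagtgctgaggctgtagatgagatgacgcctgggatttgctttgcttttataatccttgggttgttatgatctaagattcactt
Cbln4, 96751 bp downstream of the start, chr2:171946566-171946865: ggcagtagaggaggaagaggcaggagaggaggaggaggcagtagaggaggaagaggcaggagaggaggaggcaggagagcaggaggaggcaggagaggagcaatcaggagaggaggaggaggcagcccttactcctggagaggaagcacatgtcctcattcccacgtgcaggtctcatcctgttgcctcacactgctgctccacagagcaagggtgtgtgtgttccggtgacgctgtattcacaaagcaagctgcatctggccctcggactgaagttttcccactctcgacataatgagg
Grin3a, 161529 bp upstream, chr4:50006929-50007228: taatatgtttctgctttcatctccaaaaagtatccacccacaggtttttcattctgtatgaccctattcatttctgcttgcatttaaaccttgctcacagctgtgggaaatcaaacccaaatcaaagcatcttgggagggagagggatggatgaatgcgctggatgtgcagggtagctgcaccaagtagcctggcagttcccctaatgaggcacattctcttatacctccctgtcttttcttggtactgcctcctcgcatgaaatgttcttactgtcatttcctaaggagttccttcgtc
Prox1, 214067 bp upstream, chr1:190384632-190384931: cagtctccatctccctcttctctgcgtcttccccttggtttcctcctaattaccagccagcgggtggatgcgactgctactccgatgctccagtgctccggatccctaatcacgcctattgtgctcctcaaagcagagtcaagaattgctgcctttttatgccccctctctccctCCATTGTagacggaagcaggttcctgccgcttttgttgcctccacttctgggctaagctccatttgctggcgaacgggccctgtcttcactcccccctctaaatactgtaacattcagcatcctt
Htr3a, 17934 bp upstream, chr9:48928884-48929183: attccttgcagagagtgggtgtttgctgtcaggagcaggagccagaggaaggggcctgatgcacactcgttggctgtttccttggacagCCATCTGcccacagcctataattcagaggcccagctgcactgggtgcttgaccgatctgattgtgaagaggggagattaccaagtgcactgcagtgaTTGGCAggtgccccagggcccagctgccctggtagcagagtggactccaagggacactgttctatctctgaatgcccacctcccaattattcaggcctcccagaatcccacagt
Prox1, 89093 bp upstream, chr1:190259658-190259957: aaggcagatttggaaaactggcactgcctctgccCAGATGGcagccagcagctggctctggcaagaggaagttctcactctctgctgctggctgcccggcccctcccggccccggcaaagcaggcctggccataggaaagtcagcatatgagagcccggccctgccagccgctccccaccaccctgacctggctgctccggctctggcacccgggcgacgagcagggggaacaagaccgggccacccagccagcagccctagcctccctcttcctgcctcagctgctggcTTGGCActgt
Nr2f2, 229679 bp downstream of the start, chr7:70130093-70130392: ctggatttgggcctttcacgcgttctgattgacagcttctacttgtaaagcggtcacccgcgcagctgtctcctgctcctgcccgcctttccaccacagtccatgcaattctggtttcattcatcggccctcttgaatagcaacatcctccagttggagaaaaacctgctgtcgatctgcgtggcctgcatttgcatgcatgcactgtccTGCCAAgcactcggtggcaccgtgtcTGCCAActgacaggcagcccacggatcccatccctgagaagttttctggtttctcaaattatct
Nfib, in an intron of Nfib, chr4:82690314-82690613: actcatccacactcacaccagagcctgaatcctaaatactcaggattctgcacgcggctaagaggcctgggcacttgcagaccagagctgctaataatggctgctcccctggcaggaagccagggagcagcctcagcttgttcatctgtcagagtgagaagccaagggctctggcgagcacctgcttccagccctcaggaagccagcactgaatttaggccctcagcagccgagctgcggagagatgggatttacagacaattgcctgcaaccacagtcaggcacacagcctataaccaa
Of the 4 windows more open in SST, the Sst window held 1 NFI match, the Prox1 window 1 SOX match, and the Cbln4 and Grin3a windows none. Of the 4 more open in VIP, the Htr3a and the Prox1 windows each held 1 NFI match and 1 E-box, the Nr2f2 window 2 NFI matches, and the Nfib window none.

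Many of the accessible regions differed between the classes, in both directions. At a false discovery rate of 5%, 6359 regions were more open in SST, 17.6% of those tested, and 6903 were more open in VIP, 19.1%, for 36.7% in either direction. DESeq2 called fewer, 2777 and 3717, and without the filter on low counts the balance moved to 5771 and 9707. The median difference was 4.06-fold among regions higher in SST (log2 2.02, quartiles 1.48 and 2.92) and 5.78-fold among those higher in VIP (log2 2.53, quartiles 1.78 and 3.51), and 94.2% and 95.2% of them exceeded a 2-fold change. In 129 regions the VIP libraries had no read, and in 156 the SST libraries had none. The counts were 3185 and 4409 without VIP replicate 1 and 2446 and 3048 without VIP replicate 2. In those fits the lone VIP library was assumed to vary like the SST pair, which alone supplied the spread. The filter was run again there, and 49117 and 44589 regions were tested. No region called in the main analysis was called in the opposite direction in either, though both fits reuse libraries of the main analysis.

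**Figure D1:**
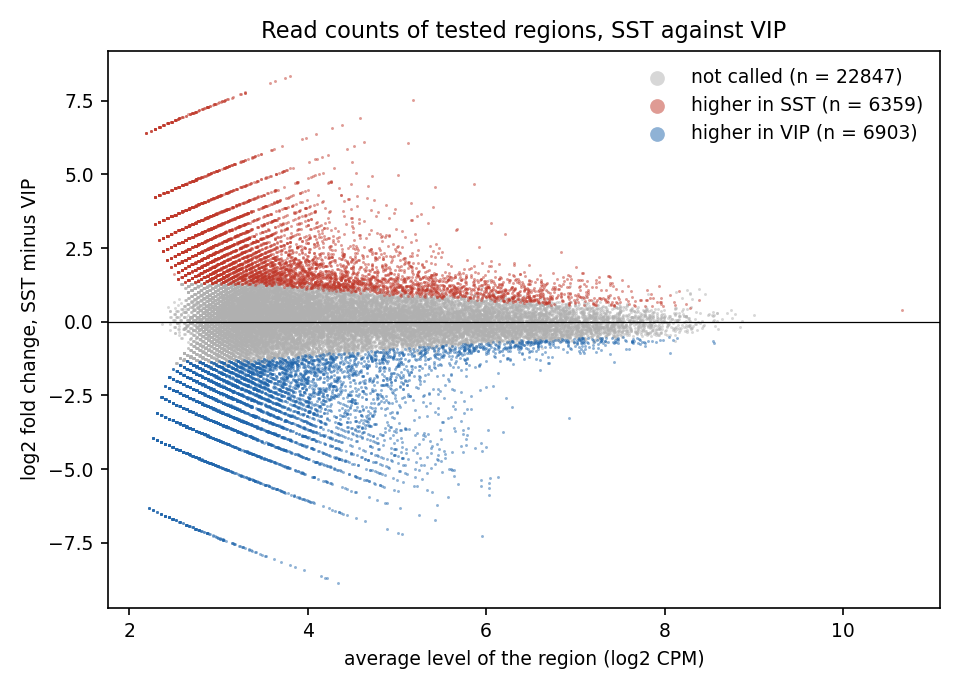
Each point is 1 of the 36109 tested regions, with its average log2 CPM on the x axis and its log2 fold change, SST minus VIP, on the y axis, coloured by whether it was called at a false discovery rate of 5%. Called regions lie on both sides of 0 over the whole range of abundance, 6359 above and 6903 below.

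Among the genes used to recognise SST cells, the largest differences lay away from the promoters. The region upstream of Sst whose sequence is shown held 10 and 24 reads in SST and 1 and 2 in VIP, a ratio of 12.6 with a counting interval of 3.97 to 64.2 (adjusted p = 0.00136). A region 96751 bp from Cbln4, which encodes a secreted organiser of synapses, held 80 and 130 reads in SST and 1 and 0 in VIP. Its ratio was 234 (interval 41.5 to 9.27e+03, adjusted p = 2.54e-05), and it was among the 3 regions with the smallest p on the SST side. Grin3a, which encodes a subunit of NMDA receptors, had a region with 22 and 36 reads in SST and 0 and 4 in VIP, 15.1-fold (log2 3.92 ± 0.71 SE, adjusted p = 0.00105). In all 3 regions both SST libraries lay above both VIP libraries.

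Smaller differences were seen at the promoters of several peptide and calcium-binding genes. Tac1, which encodes the precursor of substance P, had 16 and 17 reads at its promoter in SST and 3 and 6 in VIP (4.01-fold, adjusted p = 0.00809). Calb1, which encodes calbindin, had 63 and 96 against 35 and 35 (2.49-fold, adjusted p = 0.00593). Chodl, a marker of the long-range projecting SST cells, had 69 and 41 against 22 and 26 (2.61-fold, adjusted p = 0.0176). In each of the 3 the groups did not overlap, but none kept its call without VIP replicate 1 (adjusted p = 0.163, 0.144 and 0.203) or VIP replicate 2 (0.0602, 0.24 and 0.203), nor did Chodl without SST replicate 1 (0.108). Among SST markers a promoter region was higher in SST in 7 of 19 cases and in VIP in 0, beside 11% and 5.08% of all promoters.

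Single genes often had regions of both kinds. Cbln4 had, beside its SST-higher regions, one 230530 bp from its start with 2 and 2 reads in SST and 70 and 68 in VIP (log2 −4.88 ± 0.52 SE, 29.4-fold, adjusted p = 7.92e-05). Of its 18 tested regions, 5 were higher in SST and 8 in VIP. Pdyn, the prodynorphin gene, had a promoter with 17 and 22 reads in SST and 9 and 8 in VIP (2.52-fold, adjusted p = 0.0399), while an exonic region 11579 bp from the start held 3 and 4 reads in SST and 34 and 55 in VIP (11-fold, adjusted p = 0.000488). The call at the Pdyn promoter was lost without SST replicate 2 (adjusted p = 0.0684), VIP replicate 1 (0.197) or VIP replicate 2 (0.371). Elfn1, a synaptic adhesion gene on the list of SST markers, had 2 regions higher in SST and 5 higher in VIP among 17. These regions were assigned by nearest start, and some lie inside another gene: the Elfn1 regions with the smallest p were introns of Mad1l1. In the gated nuclei described below, Elfn1 RNA stood at 333 CPM in Sst nuclei (exact 95% Poisson interval 290 to 380) and 251 in Vip nuclei (195 to 319). Cbln4 stood at 198 and 52.5 CPM, and Pdyn at 360 CPM in Sst nuclei with no UMI in Vip nuclei.

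The transcription factors of the MGE lineage showed the clearest SST-side locus at Lhx6, which specifies MGE-derived interneurons. All 3 of its tested regions were higher in SST. The promoter region at chr2:36105106-36105881 held 39 and 32 reads in SST and 1 and 1 in VIP, a ratio of 39.5 (interval 10.5 to 333, adjusted p = 0.000219). An overlapping promoter region held 25 and 30 against 0 and 1, and an exonic region 2668 bp into the gene 21 and 30 against 2 and 0. PV libraries, which come from the same lineage, held 22 and 36 reads in the first of these. Nkx2-1, an early MGE determinant, had a region 35353 bp upstream with 23 and 20 reads in SST and 0 and 2 in VIP (ratio 23.9, interval 6.23 to 204, adjusted p = 0.000735), although no Nkx2-1 molecule was counted in the gated nuclei described below. The SST and VIP counts were apart in all of these regions.

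Other MGE factors had regions of both directions, or more regions higher in VIP. Satb1, which encodes a chromatin organiser, had an exonic region with 11 and 17 reads in SST and none in VIP (at least 10.4-fold higher in SST, from a floor of 3 reads over the VIP group; adjusted p = 0.00048), whereas 1 of its 2 tested promoter regions was higher in VIP, with 6 and 5 reads in SST and 27 and 37 in VIP (5.1-fold, adjusted p = 0.00254). Maf, which encodes a basic leucine zipper factor, had 23 tested regions, of which 14 were higher in VIP and 3 in SST. Its leading region, 292686 bp from the start, held 8 and 19 reads in SST and 164 and 221 in VIP (log2 −3.68 ± 0.34 SE, 12.8-fold, adjusted p = 4.28e-05). Over the list of MGE factors, 15 of 53 regions were higher in SST and 18 in VIP. With only the gene body and 50 kb on each side counted, 7 of 26 were higher in SST and 2 in VIP.

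On the VIP side, the marker genes were more uniform, with 23 of 38 regions higher in VIP and 5 in SST. Htr3a, which encodes the ionotropic serotonin receptor of CGE-derived interneurons, had 4 of its 5 regions higher in VIP. The one 17934 bp upstream held 3 and 5 reads in SST and 115 and 145 in VIP (log2 −4.83 ± 0.41 SE, 28.4-fold, adjusted p = 2.61e-05), and the PV libraries held 0 and 2. Crh, the corticotropin-releasing hormone gene, had a promoter region with 2 and 3 reads in SST and 21 and 39 in VIP (10.3-fold, adjusted p = 0.001). All 4 regions of Calb2, the calretinin gene, were higher in VIP, as were all 4 of Crispld2. Near Cck, the cholecystokinin gene, 1 region held no read in SST and 22 and 20 in VIP (at least 12.6-fold higher in VIP, adjusted p = 0.000447). A second region near Vip, 11795 bp from its start, held 3 and 1 reads in SST and 12 and 13 in VIP (5.36-fold, adjusted p = 0.00654), but its call was lost without SST replicate 2 (adjusted p = 0.121), VIP replicate 1 (0.315) or VIP replicate 2 (0.379). Of the 3 Calb2 and 3 Crispld2 regions followed over these fits, those 9509 bp and 1768 bp from the starts lost the call without either VIP replicate (adjusted p = 0.204 to 0.437), the latter also without SST replicate 2 (0.18), and the Calb2 intron lost it without VIP replicate 1 (0.0531).

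Exceptions among the VIP markers were found at Htr1f, Adarb2, Tac2, Cck and Cnr1, with 1 SST-higher region each. The call near Cck was lost without SST replicate 1 (adjusted p = 0.242) or VIP replicate 2 (0.315), and that near Tac2 without VIP replicate 1 (0.406). An intron of Htr1f, a serotonin receptor gene, held 31 and 48 reads in SST and 1 and 2 in VIP (ratio 29.3, interval 9.67 to 145, adjusted p = 0.000203). The promoter of Adarb2, an RNA-editing family gene that marks CGE-derived interneurons, held 42 and 29 reads in SST and 12 and 16 in VIP (2.86-fold, adjusted p = 0.0164), and 52 and 34 in PV. This call was lost without SST replicate 1 (adjusted p = 0.0638), VIP replicate 1 (0.213) or VIP replicate 2 (0.158). Its direction was opposite to that of the RNA, which stood at 4.5 CPM in Sst nuclei and 146 CPM in Vip nuclei.

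The CGE factors had 38 of 66 regions higher in VIP and 6 higher in SST, against backgrounds of 19.1% and 17.6%. Prox1, a homeobox factor needed for the maturation of CGE-derived interneurons, had 12 of 15 regions higher in VIP. The distal one shown above held 10 and 7 reads in SST and 64 and 82 in VIP (log2 −2.92 ± 0.42 SE, 7.54-fold, adjusted p = 0.000405). One of its 2 promoter regions followed, with 3 and 2 against 20 and 17 (6.4-fold, adjusted p = 0.00289, or 0.0944 without VIP replicate 1), and the other did not pass, with 24 and 10 against 17 and 19 (adjusted p = 0.9). The single Prox1 region higher in SST, 214067 bp upstream, held 23 and 23 reads in SST and 0 and 1 in VIP (ratio 51.2, interval 8.74 to 2.07e+03, adjusted p = 0.000408), and its mean phyloP score, 1.14, was well above the 0.5 used below to call a region conserved.

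Nr2f2, which encodes COUP-TFII, had 8 of 11 regions higher in VIP and 1 in SST. Its distal region held 12 and 15 reads in SST and 96 and 125 in VIP (log2 −2.86 ± 0.35 SE, 7.28-fold, adjusted p = 0.000155). Its promoter was open in both classes, with 43 and 54 reads in SST and 80 and 95 in VIP, and did not pass the test (−0.70 ± 0.29 SE, adjusted p = 0.0798). All 3 regions of Sp8, a zinc-finger factor of the CGE, were higher in VIP, the promoter with 3 and 2 against 29 and 23 reads (9.0-fold, adjusted p = 0.0013), while the call 9349 bp upstream was lost without VIP replicate 1 (0.148) or VIP replicate 2 (0.253). Nfib, a member of the nuclear factor I family, had 9 of 13 regions higher in VIP. Its leading intronic region held 9 and 11 reads in SST, 129 and 198 in VIP and 79 and 55 in PV (log2 −3.85 ± 0.35 SE, 14.4-fold, adjusted p = 3.73e-05), so that PV lay between the 2 classes there. Nr2f1, encoding COUP-TFI, was mixed: 2 of its 13 regions were higher in each class, and 1 of its 3 promoter regions was higher in SST, with 46 and 32 reads against 18 and 10 (3.11-fold, adjusted p = 0.015, or 0.325 without VIP replicate 2). The other 2 named Nr2f1 calls were each lost without either VIP replicate and without 1 of the SST replicates (adjusted p = 0.0533 to 0.372).

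**Figure D2:**
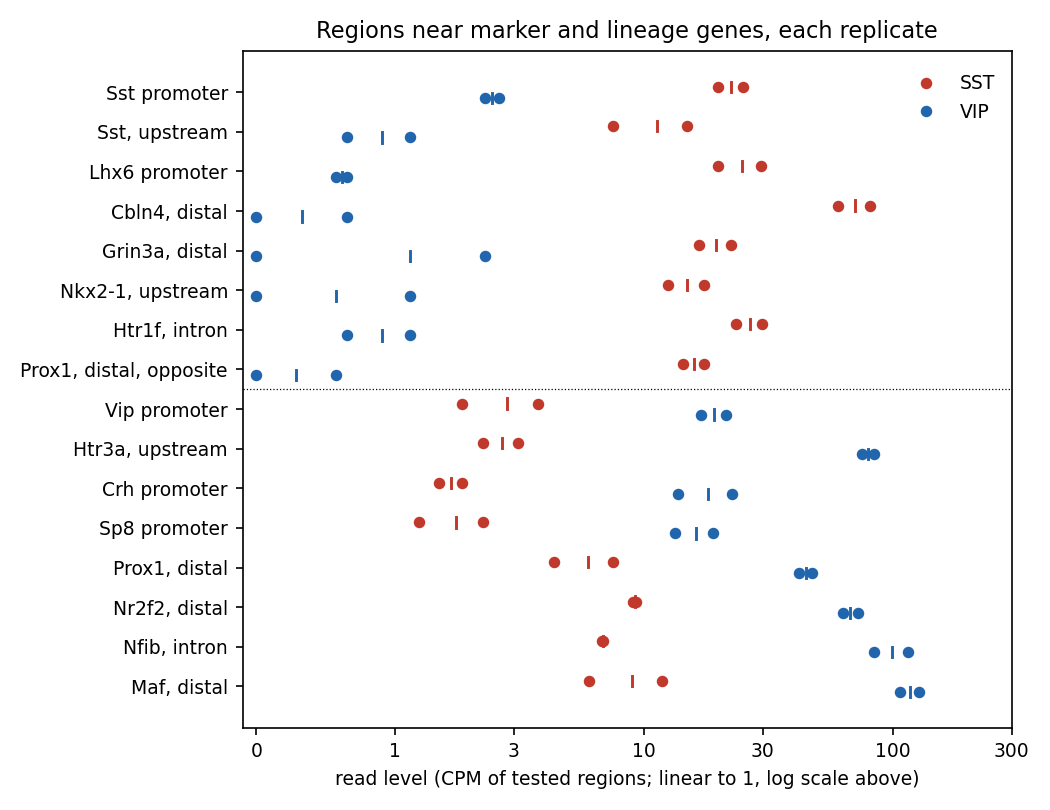
CPM over tested regions for 16 named regions, with 1 point per library in SST and VIP and a vertical tick at each group's mean; the x axis is linear up to 1 and logarithmic above. The upper 8 regions were higher in SST and the lower 8 in VIP, and the points of the 2 classes do not overlap in any of them.

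The regions with the smallest p mostly lay more than 1000 bp from a start. On the SST side the first was an intron of Mcc on chromosome 18, with 143 and 182 reads in SST and 6 and 8 in VIP (log2 4.66 ± 0.35 SE, 25.3-fold, adjusted p = 2.06e-05). The promoter of Lemd1 followed a few ranks on, with 60 and 79 against 1 and 1 (ratio 77.3, interval 21.0 to 645, adjusted p = 4.28e-05). The promoter of Nfe2l1, a regulator of proteasome genes, was open in both, with 130 and 134 against 15 and 18 (8.9-fold, adjusted p = 6.49e-05). On the VIP side the first was 227554 bp from Rybp, a Polycomb component, with 3 and 3 reads in SST and 182 and 226 in VIP (log2 −5.87 ± 0.39 SE, 58.6-fold, adjusted p = 1.22e-05). An intron of Syn3, the synapsin III gene, held 1 and 1 against 154 and 237 (ratio 176, interval 48.3 to 1.46e+03, adjusted p = 1.22e-05). Of the 8 VIP-side regions with the smallest p, 2 lay near Mycn, which encodes a MYC-family factor. PV libraries held at most 7 reads in 7 of the 8 VIP-side regions and 46 and 46 in the other, one of the 2 near Mycn.

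Among regions where one class had no read, the strongest on the SST side was an exon of Ankrd31, assigned to Gcnt4, with 37 and 39 reads in SST and none in VIP (at least 28.2-fold higher in SST, adjusted p = 0.00014). PV held 45 and 32 reads there. An intron of Oprd1, which encodes the delta opioid receptor, held 21 and 31 reads in SST and none in VIP (at least 19.3-fold, adjusted p = 0.000296), and all 3 of its regions were higher in SST. On the VIP side, a region 41040 bp upstream of Parp11 held no read in SST and 60 and 61 in VIP (at least 36.2-fold higher in VIP, adjusted p = 7.92e-05). One near Ntm, which encodes the adhesion protein neurotrimin, held none and 29 and 52 (at least 24.3-fold, adjusted p = 0.000245), with 0 and 1 in PV.

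The gene lists, chosen with earlier results of these data known, put these loci in proportion. SST markers had 28.6% of 70 regions higher in SST and 24.3% higher in VIP, and MGE factors 28.3% and 34.0% of 53, with median log2 fold changes of 0.22 and 0.13. The order within these lists was not stable. The fits without a library ran the filter again and tested 83 to 96 regions of the SST markers in place of 70. The SST markers had 11 regions each way with DESeq2, 14 higher in SST and 17 in VIP without SST replicate 2, 12 each way without VIP replicate 1, and 9 and 12 without VIP replicate 2. The MGE factors had 15 and 14 without SST replicate 2. Of the VIP-higher regions, Maf supplied 14 of the 18 near MGE factors, and Cbln4 and Elfn1 13 of the 17 near SST markers, all 3 genes singled out after their values were seen. VIP markers had 60.5% of 38 regions higher in VIP and 13.2% higher in SST (median −1.94), and CGE factors 57.6% and 9.09% of 66 (median −1.68), beside a median of 0.04 over all regions tested. For the VIP markers and CGE factors, the VIP-higher counts exceeded the SST-higher counts under every scaling tried, with DESeq2 and without any 1 library. Genes shared by all inhibitory neurons, such as Gad1 and Slc32a1, had 9 of 49 regions higher in VIP (18.4%, beside 19.1% of all tested regions) and 4 higher in SST (8.16%, beside 17.6%). PV markers had 7 each way among 28 (25.0%), with the order moving either way over the alternatives.

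Lists of membrane proteins are given beside the shares over all tested regions, 17.6% higher in SST and 19.1% higher in VIP. Potassium channels had 46 of 221 regions higher in SST (20.8%) and 50 higher in VIP (22.6%), glutamate receptors 23 and 30 of 110 (20.9% and 27.3%), and cadherins 16 and 23 of 76 (21.1% and 30.3%). As single genes of these lists, all 3 regions of Kcnt1, a sodium-activated channel gene, were higher in SST, and 4 of 13 of Kcnd3, a gene of A-type current, were higher in VIP. Neuromodulator receptors had 21 of 99 regions higher in SST (21.2%) and 35 higher in VIP (35.4%). All 4 regions of Sstr1, a receptor for somatostatin, were higher in SST, and 4 of 8 of Adra1b, an alpha-1 adrenergic receptor gene, were higher in VIP. Activity-regulated genes had 15 and 11 of 54 (27.8% and 20.4%), an order that turned to 10 and 13 without SST replicate 1 and 9 and 15 without SST replicate 2, while 5 and 2 were left without either VIP replicate or with DESeq2. With a loess offset the potassium channels had 40 and 38 and the glutamate receptors 21 each way. All 7 regions of Bdnf, the neurotrophin gene, were higher in SST, while 3 of 4 of Fosl2, an AP-1 subunit gene, were higher in VIP. The single genes of this paragraph were chosen after their values were seen. Others were mixed, as Kcnn2 with 3 regions higher in SST and 4 in VIP among 9.

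**Figure D3:**
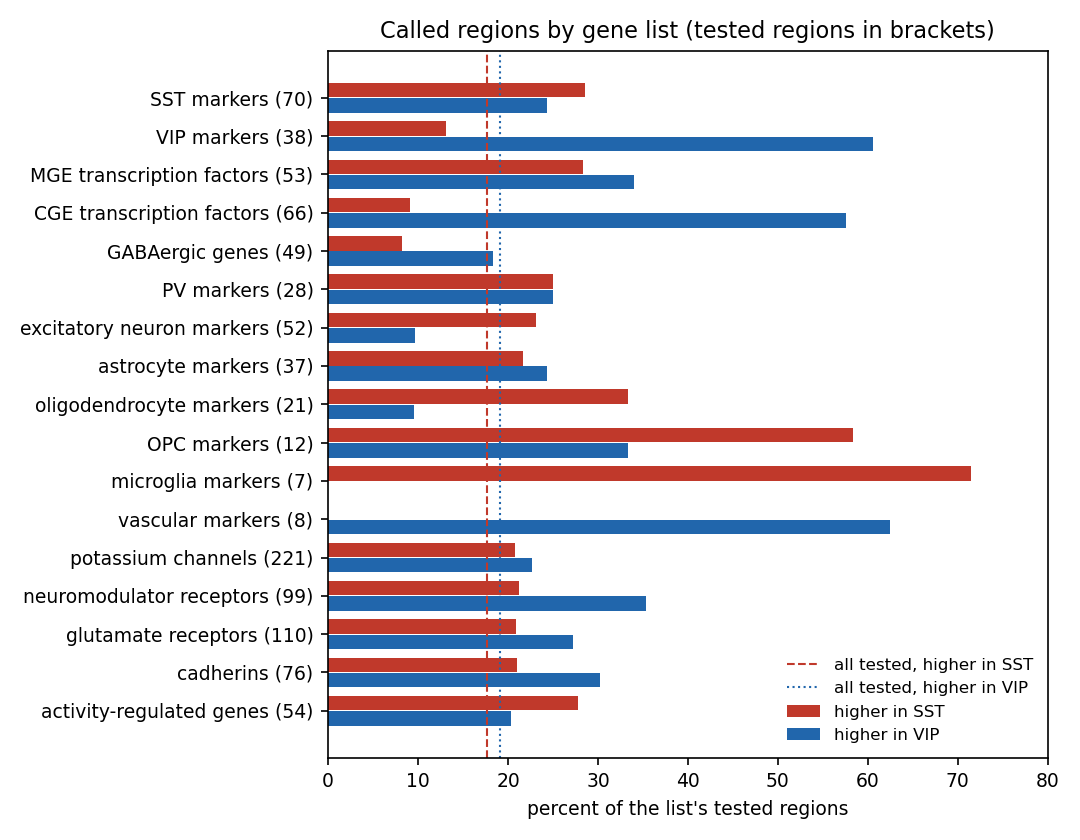
Share of each list's tested regions, in percent, that was higher in SST or higher in VIP, with lines at the shares over all tested regions, 17.6% and 19.1%. The bars of VIP markers and CGE factors stand far above the line for VIP, and those of SST markers and MGE factors stand above the line in both directions.

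At the level of whole loci, 2503 of 13987 genes with a tested region had called regions higher in SST alone, 2259 had regions higher in VIP alone, and 1711 had both. Of the 527 genes with at least 5 called regions, 12 had all of them higher in SST and 47 all higher in VIP. The gene with the most VIP-higher regions was Gse1, a subunit of a corepressor complex, with 25 of 49 and 1 higher in SST. Sall1, a zinc-finger factor, had 12 of 17 and none higher in SST. On the SST side, the RNA-binding protein gene Celf4 had the most, 16 of 45, but 11 others of its regions were higher in VIP. Prkcq, a protein kinase C gene, had 9 of 13 higher in SST and 1 in VIP, and Bcl11b, which encodes the factor CTIP2, 7 of 16 and 1. Genes with many tested regions had more chances to enter either ranking.

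Promoters, here regions within 1000 bp of a transcription start, made up 26.4% of the regions higher in SST (exact 95% interval 25.3% to 27.5%), 11.2% of those higher in VIP (10.5% to 12.0%) and 55.9% of those not called. Seen from the promoters, 11% were higher in SST and 5.08% in VIP, with median differences of 1.38 and 1.20 on the log2 scale. Introns were called more often, 23.4% higher in SST and 31.1% higher in VIP, and intergenic regions 21.6% and 30.1%. Exons had the other order, 22.5% higher in SST and 20.6% higher in VIP. With the filter, the regions called were mostly distal, and more so in VIP. These shares moved with the library left out, but each such fit ran the filter again and tested 43211 to 49117 regions in place of 36109. The SST share was 47.5% without SST replicate 2, 11.9% without VIP replicate 1 and 11.7% without VIP replicate 2, and the VIP share was 26.2%, 6.06% and 5.87% in the same fits, so the SST share was the larger in each. Without the filter on low counts the order turned, at 9.72% for SST and 10.1% for VIP.

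Markers of other cortical cells were examined beside the promoter counts. Summed over tested promoters, astrocyte markers stood at 206 and 189 CPM in SST and 146 and 139 in VIP (6 regions), oligodendrocyte markers at 39.3 and 58.5 against 20.9 and 35.8 (3 regions), and precursors of oligodendrocytes at 96.7 and 79.7 against 77.1 and 76.9 (4 regions). Excitatory neuron markers stood at 150 and 182 against 144 and 141 (8 regions) and vascular markers at 6.80 and 7.47 against 5.23 and 4.05 (1 region). Both SST values lay above both VIP values for each of these 5 lists. The same held for potassium channels (2181 and 2054 against 1935 and 2009) and cadherins (708 and 641 against 557 and 605). It did not for glutamate receptors (707 and 648 against 669 and 653) or the inhibitory genes above (403 and 337 against 388 and 384). Over all regions of the lists, 12 of 52 excitatory, 8 of 37 astrocyte, 7 of 21 oligodendrocyte, 7 of 12 precursor, 5 of 7 microglia and 0 of 8 vascular regions were higher in SST, and 5, 9, 2, 4, 0 and 5 were higher in VIP. Beside 17.6% and 19.1% of all tested regions, the astrocyte shares were 21.6% and 24.3%, the SST-higher shares of the precursor and microglia lists 58.3% and 71.4%, and the VIP-higher share of the vascular list 62.5%, the last 3 from few regions. The excitatory shares were 23.1% and 9.62%, and the oligodendrocyte shares 33.3% and 9.52%. Counting gene bodies and 50 kb around them in place of the nearest start, the astrocyte list had 0 and 8 of 30 regions. By the same rule the microglia list had 7 and 4 of 30, the vascular list 1 and 5 of 27 and the precursor list 6 and 4 of 16. The excitatory list then had 12 and 8 of 72 and the oligodendrocyte list 8 and 2 of 31. Without VIP replicate 1 the precursor list had 1 and 2. Gfap, Cx3cr1, Tmem119, Cldn5 and Slc17a6 had no region that passed the filter. The part of such nuclei in the excess of SST-higher promoters was not tested.

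Regions higher in VIP were conserved somewhat more often than those higher in SST. A mean phyloP score above 0.5 over the region was found in 15.7% of regions higher in SST (exact 95% interval 14.8% to 16.6%), 18.2% of those higher in VIP (17.2% to 19.1%) and 20.4% of those not called (19.9% to 21.0%). Promoters are more conserved and were mostly not called, so the comparison was repeated more than 1000 bp from a start. There the shares were 14.2% (13.2% to 15.2%), 17.1% (16.1% to 18.0%) and 15.5% (14.8% to 16.2%), which placed the regions not called between the 2 directions. At promoters they were 20.0% (18.1% to 21.9%), 26.9% (23.8% to 30.1%) and 24.3%. Read by conservation, the share of distal regions higher in VIP went from 26.1% at scores up to 0 to 32.5% between 0.25 and 0.5 and 30.7% above 1, while the share higher in SST stayed between 19.9% and 24.0%. These intervals cover counting error over regions of the same 4 libraries only.

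**Figure D4:**
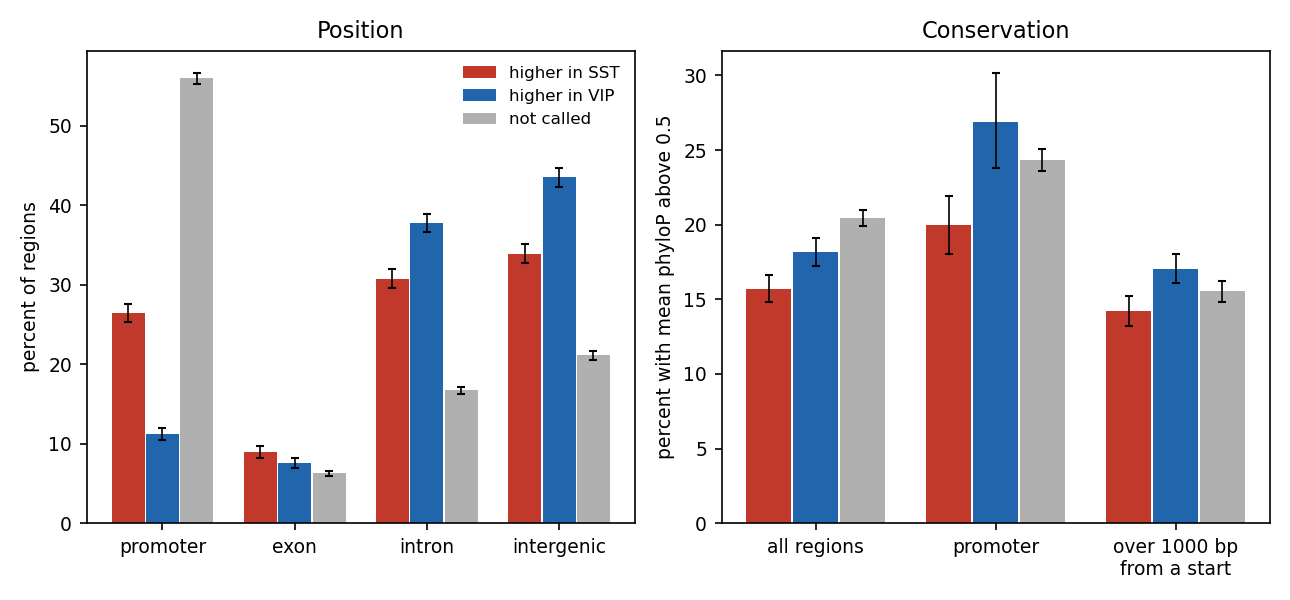
The left panel gives the percentage of regions at promoters, exons, introns and intergenic positions, and the other the percentage with a mean phyloP score above 0.5, for regions higher in SST, higher in VIP and not called; bars are exact 95% intervals. Promoters were 26.4%, 11.2% and 55.9% of the 3 sets, whereas the conserved shares differed by a few percentage points.

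Short sequence motifs separated the directions more clearly than conservation did. Each of 20 motifs was searched on both strands of the central 300 bases, and shares are given for regions more than 1000 bp from a start. The NFI motif TTGGCA, bound by the nuclear factor I family, was present in 36.1% of the regions higher in VIP (exact 95% interval 34.9% to 37.3%), 18.1% of those higher in SST (17.0% to 19.2%) and 19.7% of those not called. Over all 323369 reference regions it was present in 20.7%. The E-box CAGATGG, read by factors such as NEUROD proteins, was present in 20.8%, 10.6% and 11.4%, and in 11.3% of all reference regions. The SOX motif ACAATGG was present in 6.85%, 2.14% and 2.84%, and in 3.73% of all. For these 3 motifs it was the regions higher in VIP that stood apart, while those higher in SST lay slightly below the regions not called.

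The SST side was marked by fewer motifs. The AP-1 motif TGANTCA, bound by FOS and JUN proteins, was present in 20.4% of the regions higher in SST (19.3% to 21.6%), 15.5% of those higher in VIP (14.6% to 16.4%), 14.1% of those not called and 13% of all reference regions. Above 60% GC the order turned, with 15 of 308 SST-higher (4.87%) and 49 of 521 VIP-higher windows (9.40%). The NKX2 motif CACTTNA was present in 13.9%, 10.2% and 10.9%, and in 13.2% of all. The homeobox core TAATTA, shared by LHX and DLX factors, was more frequent in VIP, at 7.73% against 5.06% in SST and 4.49% of those not called, and in 4.91% of all, but over whole distal regions the shares were 18.5% in VIP, 17.6% in SST and 15.8% of those not called. The nuclear receptor motif AGGTCA, which COUP-TF proteins can bind, was present in 15.0% of VIP-higher, 9.4% of SST-higher and 12.7% of regions not called, and in 15.2% of all. The broad E-boxes CAGCTG and CANATG were common everywhere, at 53.1% and 65.1% in VIP, 44.8% and 58.3% in SST, 38.2% and 51.3% of those not called, and 26.3% and 57% of all. Some motifs overlap in letters, as TTGGCA does with the RFX motif GTTGCCA read on the other strand and CAGATGG with the broader E-box CANATG. A match is a description of letters, and no factor binding was measured.

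**Figure D5:**
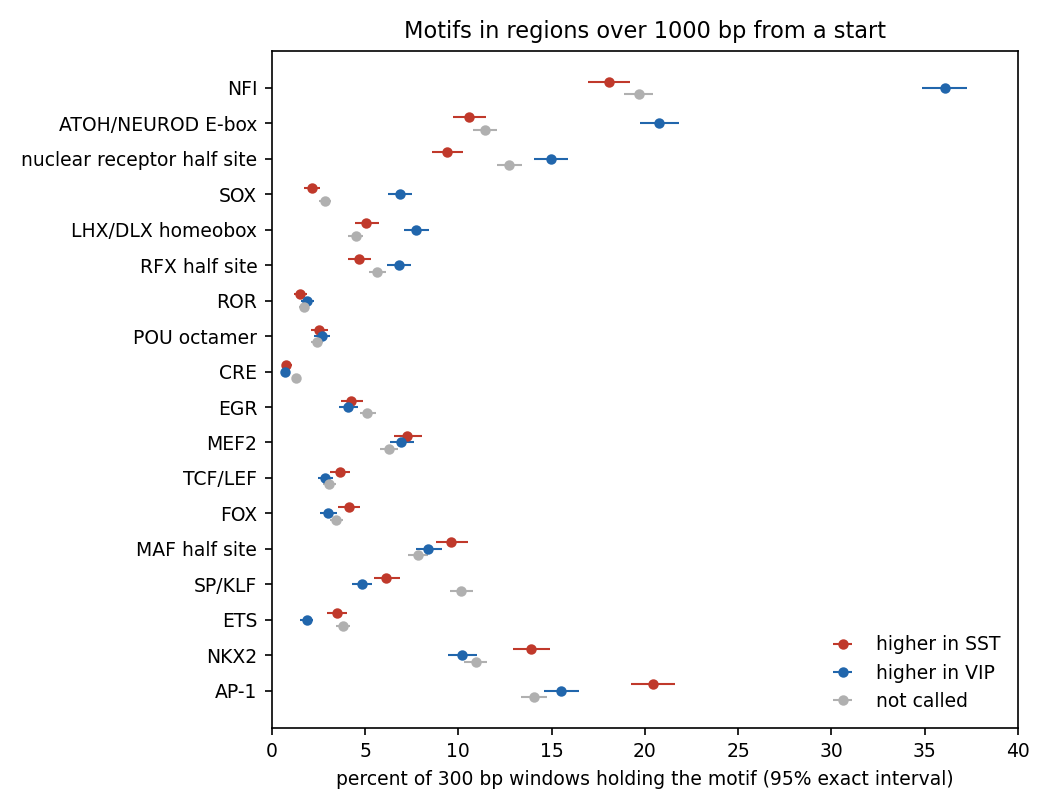
Share of distal regions, in percent, whose central 300 bases hold each motif (the 2 broad E-boxes are not drawn), with 1 dot each for regions higher in SST, higher in VIP and not called and exact 95% intervals as lines. NFI shows the widest gap drawn, 36.1% in VIP against 18.1% in SST, and for AP-1 the SST dot, at 20.4%, lies to the right of the other two.

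The PV libraries, which were not used in the main test, resembled SST in the regions that separate SST from VIP. In regions higher in SST, the median log2(CPM + 0.5) was 3.96 and 3.87 in the SST libraries, 3.81 and 3.76 in PV and 1.91 and 1.73 in VIP. In regions higher in VIP it was 1.47 and 1.57 in SST, 1.88 and 1.99 in PV and 3.83 and 3.97 in VIP. The PV mean was nearer the higher class in 79.3% of the regions higher in SST and in 16.8% of those higher in VIP. Exceptions to this were seen at the Sst promoter, with 2 and 2 PV reads, at the Grin3a region, with 1 and 1, and at the intron of Nfib described above. The Sst and Grin3a regions are among the elements the study screened. Those were ranked by SST signal over PV and VIP, so low PV reads there were part of the selection.

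The deposited peak lists, called in each library by itself, were set beside the test, with any overlap counted as a peak in the region. A peak in both SST libraries and in neither VIP library was marked in 38.5% of the regions higher in SST, and a peak in both VIP libraries and in neither SST library in 61.0% of those higher in VIP. Peaks in all 4 libraries were marked in 37.3% and 19.5% of these, and in 68.1% of the regions not called. The quantitative differences thus often lay in regions with a peak in all 4 libraries, more often so on the SST side. The paper reports fewer peaks in SST than in VIP. Promoters made up 26.4% of the regions higher in SST and 11.2% of those higher in VIP. The part of either in this difference between the sides was not tested. Of the 287 candidate elements screened in the study, 25 were among the tested regions, and all 25 were higher in SST, 3 of them with no VIP read. The candidates were chosen by the study on these same libraries and those of PV, so this count is not independent evidence. They include the Sst promoter region and the Grin3a region above.

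The single-nucleus RNA-Seq libraries were used to set the neighbouring genes beside the chromatin. Nuclei with at least 2 UMIs of Sst and none of Vip, 551 in number with 667121 UMIs, were summed over the 10 libraries. So were those with at least 2 UMIs of Vip and none of Sst, 296 with 266546 UMIs. This makes 1 sample with no test. Nuclei with UMIs of both genes were left out, 3 of them with at least 2 of each. Of genes with called regions higher in SST alone, the median log2 ratio of Sst to Vip nuclei was 0.17 over 1396 genes, and 60.6% lay above 0. Of genes with regions higher in VIP alone it was −0.07 over 1254 genes (−0.0318 with at least 1 UMI of the marker as the gate), with 46.3% above 0, and of genes with no called region 0.08 over 4916, with 54.9% above 0. The medians lay farther apart for genes with a surplus of 4 or more regions to 1 side. Such genes can also have regions of the other direction. Genes with a surplus of 4 or more SST-higher regions had a median of 0.31 (66 genes), and those with a surplus of 4 or more VIP-higher regions −0.40 (123 genes).

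At single genes the RNA ranged from matching the chromatin to not doing so. Lhx6 stood at 79.4 CPM in Sst nuclei (exact 95% Poisson interval from 59.5) and had no UMI in Vip nuclei. Prox1 stood at 1.5 CPM in Sst nuclei and 334 in Vip nuclei, and Sall1 at 3.00 and 86.3. Htr3a stood at 4.5 and 420 CPM, and Grin3a at 1004 and 71.3, each higher on the side of its leading region. Maf, with 14 regions higher in VIP and 3 in SST, stood at 472 CPM in Sst nuclei and 360 in Vip nuclei. Satb1 stood at 720 and 105, although 1 of its 2 promoter regions was higher in VIP. The intervals cover counting error only.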

How the data were processed

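ATAC-Seq of nuclei from SST and VIP interneurons (2 libraries each) was tested, and 2 PV libraries served for description and for 1 alternative fit. Read counts per reference region were deposited by the authors as whole numbers without normalization: single-end reads were trimmed (Trimmomatic 0.33), aligned to GRCm38/mm10 (Subread 1.4.6-p3), stripped of duplicates and counted (featureCounts) over the union of peaks that MACS2 and HOMER called in these and other experiments. Removing duplicates caps the highest counts, and a shared region set can hold regions closed in both classes. Conservation is the deposited phyloP score (mean and maximum) of each region. Peak lists per library were deposited with MACS2's −log10 q-values; only the positions were used, and 1 shared base counted as overlap. The deposited single-nucleus counts are UMIs per gene. The authors' specificity columns were not used, and 0 sample columns were left unmapped.

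Counts were tested with edgeR 4.0.16 (R 4.3.3; TMM, filterByExpr, quasi-likelihood F test, Benjamini-Hochberg, FDR 5%), and the SE is the absolute log2 fold change over the square root of F. The filter used the groups, so a region could pass through the class where it was high. Counts in the text are raw, and CPM is scaled to the TMM-adjusted reads in tested regions. On simulated data over 36109 regions, 136 of 200 regions changed by log2 2 were recovered, with 8 false calls. Only those 200 were changed, with 1 common spread for all regions, whereas 36.7% were called in the data. These rates therefore need not hold for the real fit. With 2 against 2 libraries an exact permutation test cannot go below p = 0.333, so none was run. A fold against a group without reads uses a floor of 3 reads over the group, and ratios with 1 to 3 reads carry an exact 95% counting interval. Intervals and floors cover counting error only. A region was assigned to the protein-coding gene (GENCODE vM21) with the nearest start. Of the tested regions, 5172 (14.3%) overlap another.

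Single nuclei with over 200 UMIs (32335 of 47348 barcodes) were kept, and Sst or Vip nuclei also needed a Gad1 or Gad2 UMI and no Slc17a7 UMI; no doublet caller was run. Ratios use CPM plus 10 and genes with at least 10 UMIs.

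Members and gene lists were chosen with earlier results of these data known. Named regions were, per direction, the 8 with the smallest p and the 8 with the largest fold, called regions of candidate elements and of the SST, VIP, MGE and CGE lists (at most 3 per gene), and promoters of Sst, Vip, Lhx6, Nr2f2 and Prox1. Named genes were the 10 with the most called regions per direction and those on the lists. Alternatives included DESeq2 1.42.0, other scalings and filters, a replicate block and leaving out each library. Values for a few genes are not reported here.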

Additional observations from a re-analysis of the deposited data

How the results depend on the processing

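No region called in the main analysis was called in the opposite direction under any alternative. The alternatives reuse the libraries of the main test. Both libraries of 1 class lay above both of the other in 6341 of the 6359 regions higher in SST and all 6903 higher in VIP. A called reversal was therefore unlikely from the outset. DESeq2 called 2777 regions higher in SST and 3717 higher in VIP, and an FDR of 1% left 3713 and 4839. Leaving out 1 library gave 2446 to 7490 and 3048 to 8691. Without the filter, 5771 and 9707 of 300816 regions were called, so SST made up 37.3% of calls rather than 47.9%. The labels do not say whether same-numbered libraries share a day or batch. Deviations of same-numbered SST and VIP libraries from their group means correlated at 0.0237 over the tested regions. The fit with the replicate block called 6279 and 6759. Of the 139 called regions among the 141 named, 43 lost the call without some library, and DESeq2 lost 29. Of the 141, the fits without SST replicate 1, SST replicate 2, VIP replicate 1 and VIP replicate 2 tested 137, 126, 140 and 138. A region that a fit did not test was not counted as lost. The second Prox1 promoter region, never called as different, changed sign from 0.10 to −0.20 without the filter, to −0.0043 with all 6 ATAC-Seq libraries, and to between −0.82 and 0.71 over the leave-one-out fits (−0.82 without SST replicate 1, −0.0026 without VIP replicate 1 and −0.010 without VIP replicate 2).

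The promoter share of SST-higher and VIP-higher regions was 21.4% and 6.89% with DESeq2, 24.2% and 12.4% with a loess offset, 9.72% and 10.1% without the filter, 24.9% and 17.8% with all 6 libraries, 15.7% and 5.44% at an FDR of 1%, and 22.7% and 7.35% with at least a 2-fold change. It was 29.7% for SST under a stricter filter, and 24.8% and 10.1% within 500 bp of a start or 28.3% and 13.1% within 2000 bp. It rose over the low, middle and high classes of abundance, from 8.55% to 22.6% and 71.2% for SST and from 4.19% to 6.94% and 37.8% for VIP. Leave-one-out fits gave 11.7% to 47.5% and 5.87% to 26.2%. The SST share was the larger in all of these except without the filter.

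The conserved share was 14.3% for SST without the filter, 17.2% for VIP with DESeq2, 19.1% for VIP with all 6 libraries and 16.9% for VIP at an FDR of 1%. It was 14.2% and 17.1% more than 1000 bp from a start, 49.7% and 51.8% by the maximum score, and 13.8%, 17.4% and 17.8% over classes of abundance for SST, with 15.9% and 23.3% in the low and high classes for VIP. Leave-one-out fits gave 14.7% to 17.1% for SST and 17.2% to 19% for VIP. The median PV level in SST-higher regions, averaged over both libraries, 3.78 on the log2 scale, was 3.90 with DESeq2, 3.69 with a loess offset or at least a 2-fold change, 3.60 without the filter, 4.02 under the stricter filter, 3.98 with all 6 libraries, 3.87 with the replicate block, 3.49 at an FDR of 1% and 3.49 to 4.82 in leave-one-out fits. In VIP-higher regions, 1.93, it was 1.58 with DESeq2, at an FDR of 1% or with at least a 2-fold change, 2.22 with all 6 libraries and 1.93 to 2.45 in leave-one-out fits. With promoters included, AP-1 was present in 16.4% and 14.5% of windows and 28.8% and 26.1% of whole regions, NFI in 16.0% and 33.7% and in 35.9% and 51.4%, the E-box CAGATGG in 8.93% and 19.0% and in 19.0% and 30.2%, and SOX in 1.93% and 6.39% and in 7.42% and 12.9%. Over whole distal regions the shares were 34.0% and 27.5%, 38.4% and 53.8%, 21.3% and 32.2%, and 8.23% and 13.6%, in the same order. In distal windows of 50% to 60% GC, an alternative chosen after seeing the data, AP-1 was present in 20.6% and 15.6%, NFI in 18.1% and 36.0% and the E-box in 11.2% and 21.5%; above 60% GC, AP-1 turned to 4.87% and 9.40%. Counting only gene bodies and 50 kb around them, the SST and MGE lists had 22 regions higher in SST and 13 higher in VIP, against 35 and 35. With 1 UMI as the gate, the median of genes with regions higher in VIP alone was −0.0318. The causes of these shifts were not tested. Regions not tested had a median of 6 reads and at most 61 over the 4 libraries.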

Other observations

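Called regions lying close together moved the same way more often than distant ones. As 47.9% of all calls were higher in SST, randomly drawn pairs would share a direction about as often as not. Neighbouring called regions up to 10000 bp apart had the same direction in 989 of 1555 pairs (63.6%), and the share was 59.5% from there to 50000 bp, 57.5% up to 100000 bp and 53.8% up to 500000 bp. With both regions more than 1000 bp from a start it was 60.7% in the nearest class and 52.7% in the farthest. Pairs share libraries and some regions overlap, so no test was made.

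Among the genes whose called regions all pointed to SST was Nxph1, which encodes the secreted synaptic protein neurexophilin 1, with 5 regions and 456 CPM in Sst nuclei against 11.3 CPM in Vip nuclei. Dmrt2, a transcription factor gene, had 5 such regions, with 16.5 CPM in Sst nuclei and no UMI in Vip nuclei. Klf9, a zinc-finger factor gene, also had 5, but stood at 172 and 218 CPM. These 3 genes were chosen after their values were seen.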
